A study of Mus musculus with 9 samples.

Results

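Of the 18427 H3K4me3 peaks in the wild-type list, 2415 (13.1%) were broad, carried both histone marks in wild type and had no H3K4me3 peak left in either of the PRDM9 mutants. These members were selected on measured values: a wild-type H3K4me3 peak at least 1500 bp wide, meeting, by 1 bp or more, an interval where wild type had H3K36me3 as well (a double-marked peak), and overlapping no H3K4me3 peak of the EP or the EK mutant. Width, double-marking and loss are therefore described here without a test, and tests are kept for where the sites lie. A peak with no overlapping mutant peak is called lost and any other is called kept. Loss in a list of positions means that no peak was listed at the site, not that the mark was at 0 there.

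PRDM9 is a methyltransferase of early meiosis that binds DNA through an array of zinc fingers and trimethylates lysine 4 and lysine 36 of histone H3 on the nucleosomes around its binding site. Sites that carry both marks are where meiotic double-strand breaks, and so recombination, are placed in mice. H3K4me3 also marks active promoters and H3K36me3 the bodies of transcribed genes, so neither mark alone is particular to PRDM9 sites.

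The chromatin came from spermatocytes of mice aged 14 days, of strain C57BL/6J, in 3 genotypes: wild type, homozygous EP and homozygous EK. EP replaces glutamate 360 of PRDM9 by proline and EK replaces it by lysine, and the labels call both severe hypomorphs for catalysis. The 9 libraries formed 6 groups, with 2 H3K4me3 libraries and 1 H3K36me3 library per genotype. The libraries of wild type, both EP H3K4me3 libraries and 1 EK H3K4me3 library were earlier data. For H3K36me3, wild type was thus earlier and both mutants new, so that split and genotype cannot be told apart, whereas for H3K4me3 only 1 EK library was new. The files used here hold positions only, in 1 H3K4me3 list and 1 double-marked list per genotype, restricted to known PRDM9-dependent sites. There is thus no replicate error, the read depth behind a peak is unknown, and the labelled cell type could not be checked against marker genes.

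Few members lay at gene starts, as in the list as a whole, and the sequences of those that did are shown here. Of the 2415, 21 (0.870%) overlapped one of the 32851 RefSeq promoter windows, which run from 250 bases before to 50 bases after a gene start on GRCm38.p6, the assembly whose coordinates mm10 uses. The share was 0.988% in the whole list, 1.47% in broad double-marked sites kept in a mutant, 0.801% in narrower double-marked lost sites and 0.688% in broad H3K4me3-only lost sites. The 21 members touched 22 windows of 21 genes, 6 of them protein-coding. Among the 6 widest such members, those at Gm30501, D130037M23Rik, Pinc and Zfp616 held a whole window inside the double-marked interval, and these windows are printed with each CG (a CpG, a cytosine followed by guanine, which reads the same on both strands) in capitals. Gm30501, a long non-coding RNA gene with 2 such windows, is shown by the first, at chr7:125210165-125210464 on the plus strand, inside a member of 3033 bp. D130037M23Rik, a protein-coding gene, has its window at chr13:103912516-103912815 on the plus strand, inside a member of 2277 bp. Pinc, a long non-coding RNA gene, has its window at chr1:73407520-73407819 on the minus strand, inside a member of 2110 bp. Zfp616, a zinc-finger protein gene, has its window at chr11:74060647-74060946 on the plus strand, inside a member of 1929 bp.
Gm30501: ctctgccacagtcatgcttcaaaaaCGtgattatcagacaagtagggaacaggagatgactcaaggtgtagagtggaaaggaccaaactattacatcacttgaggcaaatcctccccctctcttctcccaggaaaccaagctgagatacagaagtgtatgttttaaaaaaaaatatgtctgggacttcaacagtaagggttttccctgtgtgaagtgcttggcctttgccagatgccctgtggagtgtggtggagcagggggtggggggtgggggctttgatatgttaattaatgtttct
D130037M23Rik: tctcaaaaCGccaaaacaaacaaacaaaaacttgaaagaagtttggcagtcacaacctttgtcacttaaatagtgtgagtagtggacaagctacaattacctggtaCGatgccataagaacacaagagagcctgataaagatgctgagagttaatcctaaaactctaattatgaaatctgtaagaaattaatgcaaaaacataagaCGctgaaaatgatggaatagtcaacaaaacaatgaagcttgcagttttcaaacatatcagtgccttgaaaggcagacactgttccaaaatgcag
Pinc: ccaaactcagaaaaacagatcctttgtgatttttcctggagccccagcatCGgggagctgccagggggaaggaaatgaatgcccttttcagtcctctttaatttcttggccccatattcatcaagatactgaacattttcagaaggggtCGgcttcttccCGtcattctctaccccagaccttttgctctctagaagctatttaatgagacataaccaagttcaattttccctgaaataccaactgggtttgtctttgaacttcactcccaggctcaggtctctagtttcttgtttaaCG
Zfp616: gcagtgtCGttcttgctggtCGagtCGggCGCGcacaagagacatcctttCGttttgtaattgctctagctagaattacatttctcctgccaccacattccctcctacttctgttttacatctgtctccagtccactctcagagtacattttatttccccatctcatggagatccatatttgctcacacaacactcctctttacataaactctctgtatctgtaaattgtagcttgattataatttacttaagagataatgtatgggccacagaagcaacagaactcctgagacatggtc

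These windows held few CpG. The count was 1 in Gm30501, 3 in D130037M23Rik, 4 in Pinc and 6 in Zfp616, with a GC content of 46%, 36%, 44.3% and 42.3%. Over all 22 windows touched by members the median was 3 CpG in 300 bases, with a range of 0 to 7, and the median GC content was 45.7%, with a range of 31.7% to 55.0%. None of the 22 reached 10 CpG. Of all 32851 windows, 43.5% held at least 10, and the median window held 7 with a GC content of 52.7%. The 199 windows touched by any wild-type H3K4me3 peak of the list were similar to those of the members, with a median of 3 CpG, a median GC content of 46.7% and 3 windows (1.51%) with at least 10. At least 1 CG was present in 95.5% of the members' windows, 93.0% of those at any listed peak and 94.6% of all windows, so presence alone does not separate them.

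**Figure D1:**
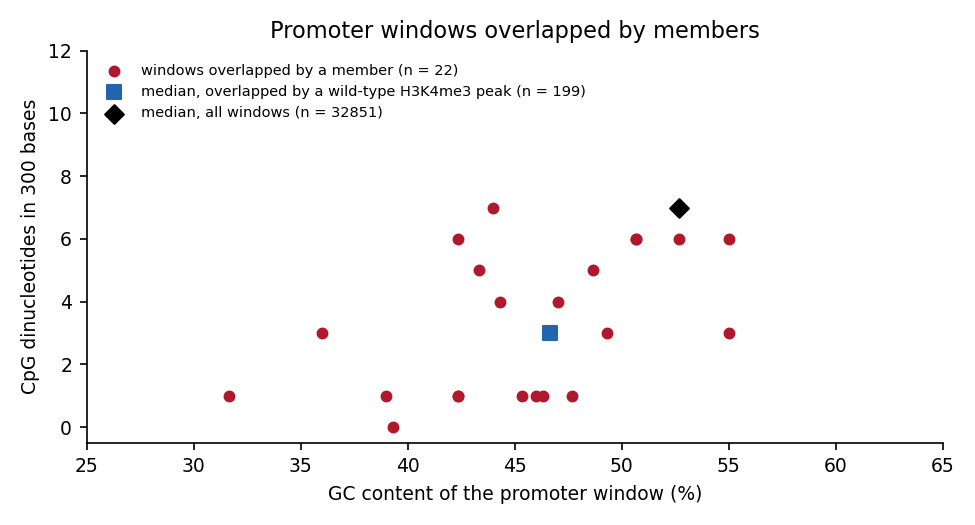
CpG count (vertical axis, per 300 bases) against GC content (horizontal axis, percent) for the 22 promoter windows overlapped by a member (red points), beside the medians of the 199 windows overlapped by any wild-type H3K4me3 peak (blue square) and of all 32851 windows (black diamond). No member window has more than 7 CpG, the median of all windows.

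Few members held a microRNA gene. Of 1005 hairpins in the RefSeq table, 10 overlapped a wild-type peak and 3 of these overlapped a member. Members made up 13.1% of the wild-type peaks and 19.0% of their base pairs, and 10 hairpins are too few to read a difference from. The 3 are named here because of that overlap, after it was seen. Mir6353, within the span of Pid1 on chromosome 1, met a member at chr1:84216907-84218957 (2051 bp). Mir6238 lay wholly inside a member at chr7:53890319-53892058 (1740 bp). Mir5618, within the span of Tmem123, crossed the edge of a member at chr9:7784400-7785977 (1578 bp), with its 3p arm inside. The mature RNAs whose coordinates lie wholly inside a member are printed with the seed, bases 2 to 8, in capitals, and they do not share a seed.
mmu-miR-6353: uAGCAGCAcguauuuauccuauu
mmu-miR-6238: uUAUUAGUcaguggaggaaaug
mmu-miR-5618-3p: cUAUACCAuguaaagggu

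The rule reached the members in steps. Of the 18427 wild-type H3K4me3 peaks, 4881 (26.5%) were at least 1500 bp wide, and 3507 of these were double-marked. EP lacked 2432 of the 3507 (69.3%, 95% Wilson interval 67.8 to 70.9%), against a background of 80.1% of the whole wild-type list lost in EP. EK lacked 3003 of the 3507 (85.6%, 84.4 to 86.8%), against 82.3% of the whole list. Both lacked 2415 (68.9%, 67.3 to 70.4%), against 76.7% of the whole list. The loss is what chose the members, so nothing is read from these shares about them. The remaining 1092 broad double-marked sites comprised 588 (16.8%) kept in EP alone, 487 (13.9%) kept in both mutants and 17 (0.485%) kept in EK alone. Almost every broad double-marked site lost in EP was therefore also lost in EK, while 588 lost in EK were kept in EP. Most peaks of the whole list lost in EP were lost in EK too, 14134 of 14766. Of the 15165 lost in EK, the same 14134 were lost in EP. None of the members overlapped a double-marked peak of either mutant. The rule all but fixes this, because the double-marked lists draw on the H3K4me3 libraries too, so nothing is read from it.

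Most members sat near the lower edge of the width range. Their widths ran from 1500 to 3653 bp with a median of 1742 bp and quartiles of 1605 and 1899.5 bp. Of the 2415, 349 (14.5%) reached 2000 bp, 39 (1.61%) reached 2500 bp and 9 (0.373%) reached 3000 bp. Together they covered 4.31 Mb, 19.0% of the base pairs in the wild-type list. The 1092 broad double-marked sites that were kept were wider, with a median of 2201 bp and quartiles of 1937.75 and 2474.5 bp. Among these, the sites kept in EP alone had a median of 2090.5 bp and those kept in both mutants 2401 bp. The 2996 double-marked sites that were lost but narrower than 1500 bp had a median of 1242 bp, and the 1018 broad H3K4me3-only sites lost in both mutants 1776 bp.

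Loss fell steeply with width inside the broad class. Of double-marked sites of 1500 to 1749 bp, 1242 of 1365 were lost in both mutants (91.0%, 89.4 to 92.4%). At 1750 to 1999 bp it was 824 of 1030 (80.0%, 77.4 to 82.3%). At 2000 to 2249 bp it was 250 of 524 (47.7%, 43.5 to 52.0%), and at 2250 to 2499 bp 60 of 296 (20.3%, 16.1 to 25.2%). From 2500 to 2999 bp 30 of 219 were lost (13.7%), and from 3000 bp 9 of 73 (12.3%, 6.62 to 21.8%). The members thus made up most of the sites below 2000 bp and few of those above 2250 bp.

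On either side of the 1500 bp limit the lost share was similar, in windows too small to show a change of a few points. Just below it, at 1490 to 1499 bp, 57 of 59 double-marked sites were lost in both mutants (96.6%), and just above it, at 1500 to 1509 bp, 77 of 80 (96.2%). Over the 250 bp below the limit the lost share was 94.4% (93.1 to 95.4%), and over the next 250 bp down it was 92.3%. From 1500 to 1749 bp it was 91.0% (89.4 to 92.4%), so most of the fall lay at larger widths, within the broad class.

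The mutants lost sites over different widths. EP kept 8.57% of double-marked sites of 1500 to 1749 bp, 19.4% at 1750 to 1999 bp, 51.7% at 2000 to 2249 bp and 79.4% at 2250 to 2499 bp. EK kept 3.96%, 5.34%, 15.8% and 37.5% in the same classes. At 2500 to 2999 bp the kept shares were 85.8% in EP and 66.7% in EK, and from 3000 bp 87.7% and 75.3%. In every class from 1500 bp EP kept the larger share. Broad sites with H3K4me3 alone also lost fewer peaks at larger widths, with 90.2% lost in both mutants at 1500 to 1749 bp, 87.9% at 1750 to 1999 bp, 65.4% at 2000 to 2249 bp, 50% at 2250 to 2499 bp and 21.8% from 3000 bp.

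**Figure D2:**
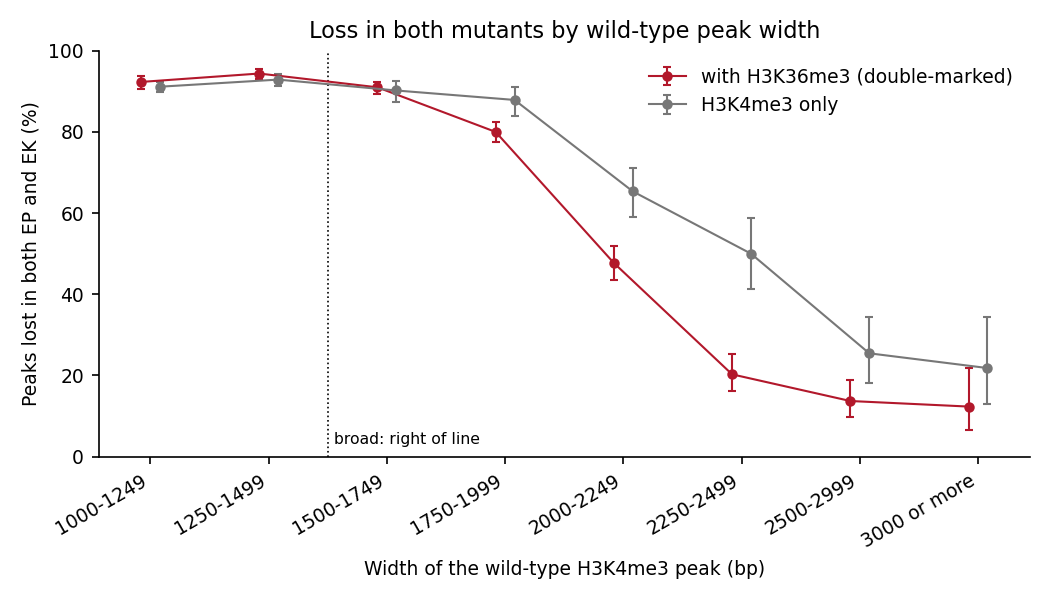
Percent of wild-type H3K4me3 peaks lost in both mutants (vertical axis) by width class of the wild-type peak in bp (horizontal axis), for double-marked peaks (red) and H3K4me3-only peaks (grey), with 95% Wilson intervals that cover counting of sites only. Right of the dotted line, loss of double-marked peaks falls from 91.0% to 12.3%.

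In the members the double-marked interval filled most of the H3K4me3 peak. All 2415 members contained their double-marked interval whole, and 2 of them held 2 such intervals. It covered a median of 90.9% of the peak (quartiles 81.5 and 98.7%), and 525 members (21.7%) were covered from border to border. A further 803 (33.3%) shared 1 border to the base and 1087 (45.0%) shared neither. The lowest cover was 31.1%, and 11 members (0.455%) were covered by less than 50%. The median double-marked width was 1560 bp, with a range of 523 to 3653 bp, and the median uncovered length was 159 bp. The midpoints of both intervals lay a median of 38.5 bp apart, and within 100 bp in 1924 members (79.7%).

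The kept sites were covered slightly more. Their median cover was 93.5% (quartiles 85.8 and 100%), and 284 (26.0%) were covered from border to border. Within width classes the medians for lost and kept sites were 90.4% and 95.1% at 1500 to 1749 bp, 91.1% and 94.3% at 1750 to 1999 bp, and 91.9% and 93.8% at 2000 to 2499 bp. From 2500 bp they were 91.3% and 92.5%. The order was the same in each class, and it is given without a test because double-marking and width belong to the rule.

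**Figure D3:**
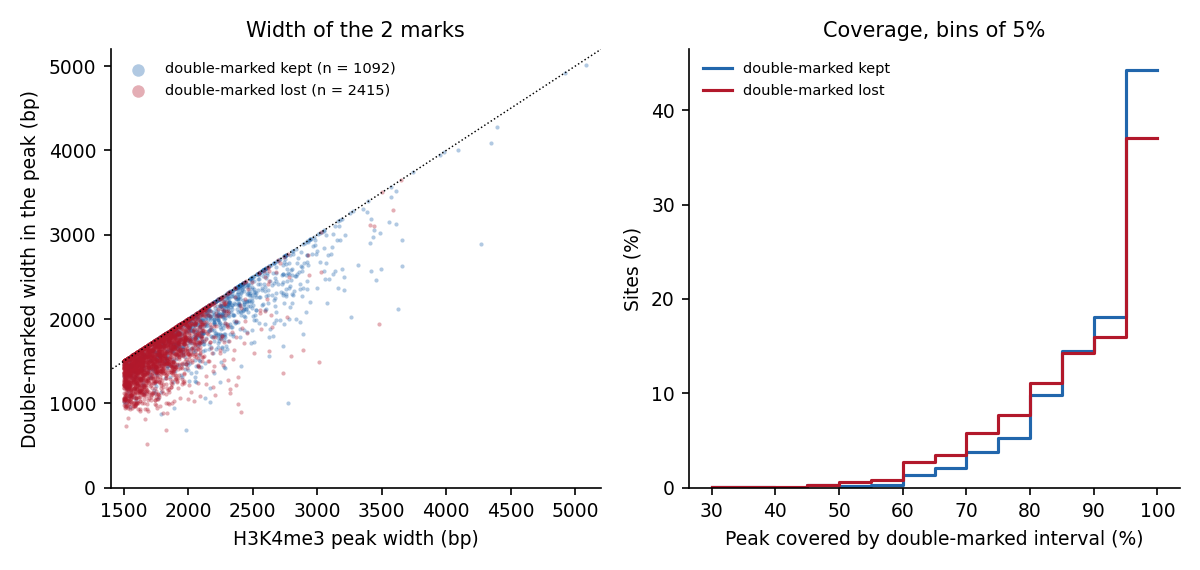
Left, width of the double-marked interval (vertical axis, bp) against width of the wild-type H3K4me3 peak (horizontal axis, bp) for the 2415 members (red) and the 1092 kept sites (blue), with the dotted line at equal width. Right, percent of sites (vertical axis) by the share of the peak that the double-marked interval covers (horizontal axis, bins of 5%), where the members have a median of 90.9% and the kept sites 93.5%.

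Where broad double-marked sites kept a mutant peak, its median width was below that in wild type, which is partly fixed by the choice of sites. They were chosen for a wild-type width of at least 1500 bp, with no limit on the mutant width. The widths are therefore given as a description, and kept sites of all widths were not examined. In EP the 1075 kept sites had a median mutant width of 998 bp, with a median ratio of 0.466 to the wild-type width. In EK the 504 kept sites had a median of 1074 bp and a ratio of 0.460. The mutant interval lay wholly within the wild-type peak at 1061 of the 1075 EP sites and at 492 of the 504 EK sites. For the members there is no such mutant interval by definition.

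The surroundings of the members were compared through 6 measures, each against 3 classes: the 1092 broad double-marked sites kept in a mutant, the 2996 narrower double-marked sites lost in both, and the 1018 broad H3K4me3-only sites lost in both. Each of the 18 comparisons used a two-sided exact test (Fisher), p-values were adjusted by Benjamini-Hochberg over all 18, and 6 passed an adjusted p of 0.05. One measure, loss of the nearest wild-type peak, comes from the same mutant lists that chose the members, so its 3 tests count in the adjustment but only its values are given. The tests compare lists of sites, which are not replicates of mice. Of the 6, 3 were against broad H3K4me3-only sites (gene spans, gene boundaries and neighbouring peaks), 2 against narrower double-marked sites (gene spans and X-linkage) and 1 against kept sites (X-linkage).

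A minority of the members lay in a gene that codes for protein. The midpoint fell within the span of such a gene, from its first to its last annotated base, for 1044 of 2415 members (43.2%, 41.3 to 45.2%). The share of the whole list was 53.3%, and these spans made up 37.9% of chromosome length. Of the broad H3K4me3-only sites, 834 of 1018 (81.9%, 79.4 to 84.2%) lay in such a span, so the members were lower by 38.7 percentage points (95% interval of the difference -41.7 to -35.5 points, adjusted exact p = 3.85e-101). Of the narrower double-marked sites lost in both, 1604 (53.5%, 51.7 to 55.3%) did, and the members were lower by 10.3 points (-13.0 to -7.64 points, adjusted exact p = 3.08e-13). With broad taken from 2000 bp, the latter difference was -6.67 points and its adjusted exact p was 0.0775. The broad double-marked sites that were kept had 478 (43.8%) in gene spans, and the difference from the members was -0.543 points (-4.09 to 2.98 points, adjusted exact p = 0.865). The share in gene spans hardly varied with width among the members, at 42.5% from 1500 to 1749 bp, 44.5% from 1750 to 1999 bp and 42.7% from 2000 bp.

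Gene ends gave a smaller contrast of the same kind. The start or end of a protein-coding span lay no more than 1 kb from 72 members (2.98%, beside 3.85% of the whole list) and from 60 broad H3K4me3-only sites (5.89%, 4.61 to 7.51%), a difference of -2.91 points (-4.64 to -1.42 points, adjusted exact p = 0.000409). With broad taken from 2000 bp it was -5.00 points with an adjusted exact p of 0.0631. The kept sites had 36 (3.30%) and the narrower lost sites 103 (3.44%), which differed from the members by -0.315 points (-1.69 to 0.865 points) and -0.457 points (-1.39 to 0.506 points), neither past the threshold. When the limit was widened to 5 kb, both did pass, at -3.56 points against kept sites and -3.32 points against narrower ones.

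The X-linked share of the members, close to the 3.38% of the whole list, lay between those of kept and of narrower sites. It was 87 of 2415 (3.60%, 2.93 to 4.42%), against 66 of 1092 kept sites (6.04%), a difference of -2.44 points (-4.15 to -0.934 points, adjusted exact p = 0.00505). Against the narrower lost sites, 65 of 2996 of which were X-linked (2.17%), the members were higher by 1.43 points (0.541 to 2.37 points, adjusted exact p = 0.00505). Among the members the X-linked share was 2.90% (2.10 to 3.99%) from 1500 to 1749 bp, 4.25% (3.07 to 5.85%) from 1750 to 1999 bp and 4.58% (2.84 to 7.32%) from 2000 bp, with overlapping intervals. The calls depended on the widths included. Restricted to sites of 1500 to 1999 bp, a check added after the data were seen, the difference from kept sites was -1.12 points with an adjusted exact p of 0.406. It was -2.10 points (adjusted exact p = 0.497) with broad taken from 2000 bp, and -2.59 points (adjusted exact p = 0.000332) with the limit lowered by 250 bp. The difference from narrower sites was 1.90 points (adjusted exact p = 0.159) with broad taken from 2000 bp and 1.01 points (adjusted exact p = 0.0617) with the limit lowered by 250 bp. The broad H3K4me3-only sites had 38 (3.73%), -0.130 points apart from the members (-1.64 to 1.16 points, adjusted exact p = 0.892). This difference was 2.17 points (adjusted exact p = 0.491) with broad taken from 2000 bp. It was -1.27 points (adjusted exact p = 0.0267) with the limit lowered by 250 bp.

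Neighbouring peaks gave 1 further difference. Another wild-type H3K4me3 peak lay within 50 kb of 1290 members (53.4%, beside 57.5% of the whole list) and of 694 broad H3K4me3-only sites (68.2%, 65.2 to 71.0%), a difference of -14.8 points (-18.2 to -11.2 points, adjusted exact p = 7.86e-15). The kept sites had 620 (56.8%) and the narrower lost sites 1648 (55.0%), and these differed from the members by -3.36 points (-6.89 to 0.200 points) and -1.59 points (-4.26 to 1.08 points), with adjusted exact p of 0.151 and 0.407. Among sites of 1500 to 1999 bp the difference from kept sites was -7.02 points (adjusted exact p = 0.0604). At 100 kb the differences from kept and narrower sites both passed the threshold, at -3.73 and -3.59 points. With the width limit lowered by 250 bp, the difference from kept sites within 50 kb passed (-3.68 points, adjusted exact p = 0.0448). With broad taken from 2000 bp both changed sign, to 1.29 and 2.60 points (adjusted exact p of 0.849 and 0.612).

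The nearest other wild-type peak was itself lost in both mutants for 1899 members (78.6%), beside 76.4% for the whole list. It was lost for 831 kept sites (76.1%), 2357 narrower lost sites (78.7%) and 784 broad H3K4me3-only sites (77.0%). Nothing is read from these shares, since 376 of the members' nearest neighbours were themselves members and so lost by the rule. The share in the distal 10 Mb of an autosome was 135 of 2327 autosomal members (5.80%, beside 7.74% of the whole list), and its differences from the kept, narrower and H3K4me3-only classes were -0.735 points (-2.63 to 0.965 points), -1.53 points (-2.87 to -0.177 points) and -1.55 points (-3.56 to 0.242 points). The second of these had an unadjusted exact p of 0.0297 and an adjusted one of 0.0764, and none of these 3 passed. With the width limit lowered by 250 bp, the distal share did pass against narrower sites (-2.25 points, adjusted exact p = 0.0118). It also passed there against H3K4me3-only sites (-1.71 points, adjusted exact p = 0.0267).

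**Figure D4:**
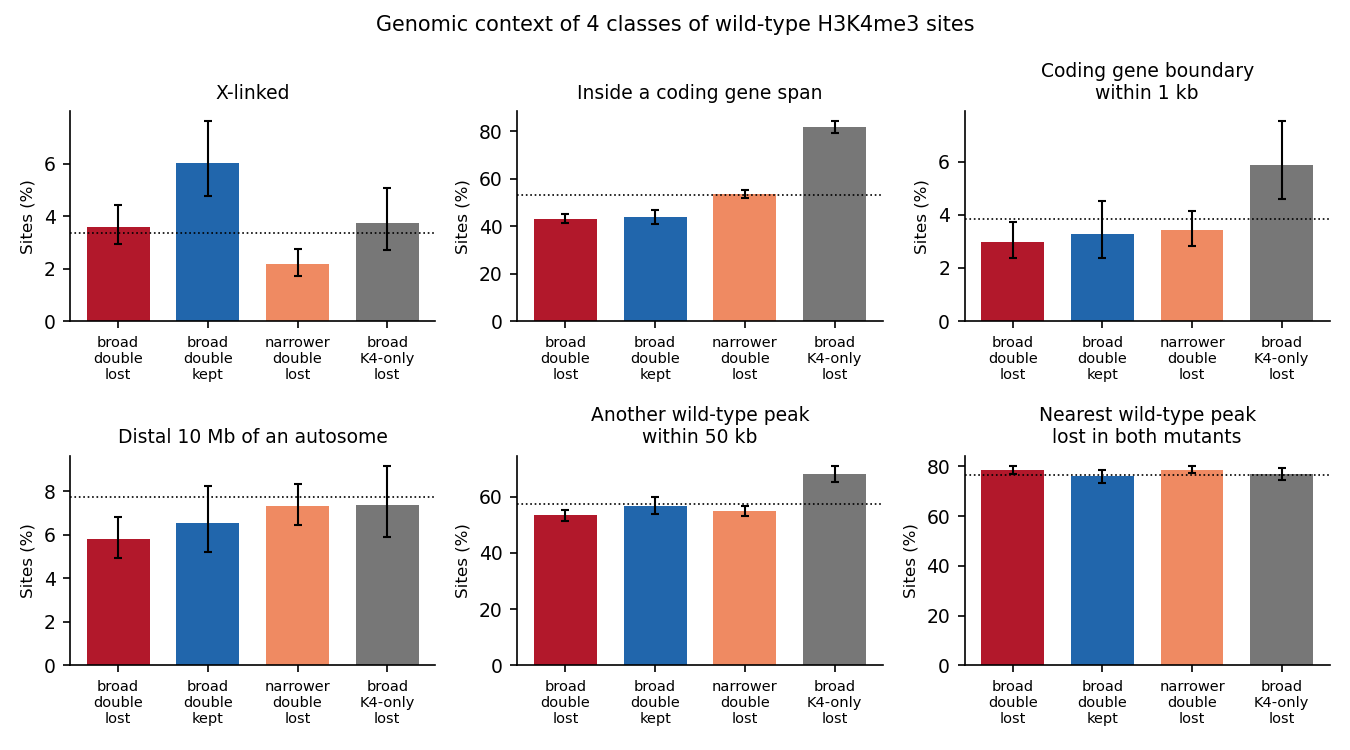
Percent of sites (vertical axes, each from 0) with each of 6 properties, for the 2415 broad double-marked lost sites (red), the broad double-marked kept sites (blue), the narrower double-marked lost sites (orange) and the broad H3K4me3-only lost sites (grey), with 95% Wilson intervals; the dotted line is the whole wild-type list. Broad H3K4me3-only sites stand above the members for gene spans (81.9% against 43.2%) and for neighbours within 50 kb (68.2% against 53.4%).

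The nearest wild-type H3K4me3 peak lay a median of 44.9 kb from a member (quartiles 19.1 and 99.7 kb), beside 43.3 kb for narrower double-marked lost sites, 40.6 kb for kept sites, 28.0 kb for broad H3K4me3-only lost sites and 39.5 kb for the whole list. It lay within 10 kb for 341 members (14.1%). The nearest other member was a median of 322 kb away, 270 members (11.2%) had another within 50 kb, and the closest pair lay 347 bp apart. Among the nearest wild-type neighbours, 1042 (43.1%) were double-marked, beside 37.4% of the whole list, 675 (28.0%) were broad, beside 26.5%, and 376 (15.6%) were members, beside 13.1%.

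The rule bars a mutant peak from overlapping a member, so distances to mutant peaks are partly fixed by it and are given as a description. The nearest EP peak was a median of 259 kb away and the nearest EK peak 307 kb. An EP peak lay within 50 kb of 15.2% of members and an EK peak within 50 kb of 12.7%. In the whole list, with kept peaks counted at a distance of 0, the medians were 144 kb to EP and 178 kb to EK, and the shares within 50 kb 33.1% and 29.2%. Within 2 kb there was an EP peak at 12 members and an EK peak at 8, and within 500 bp at 1 and 2 members. Few members thus had a mutant peak just outside their borders. When peaks within 500 bp were first merged, 2435 sites met the rule. The medians for narrower double-marked lost sites were 238 kb to EP and 272 kb to EK, and for broad H3K4me3-only lost sites 150 kb and 195 kb.

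Members occurred on all chromosomes of the list. They ranged over the autosomes from 53 on chromosome 19 to 207 on chromosome 1. Of the broad double-marked sites of an autosome, the share lost in both mutants ran from 63.4% on chromosome 12 (116 of 183) to 76.9% on chromosome 18 (83 of 108). On the X chromosome it was 56.9% (87 of 153, 48.9 to 64.4%), below every autosome's value, and the Y chromosome held 1 member among 2 sites. Widths are not held equal in these shares. Among sites of 1500 to 1999 bp the X-linked share of members differed from that of kept sites by -1.12 points (adjusted exact p = 0.406). Along the autosomes, cut into 10 equal segments from the lowest coordinate, where mouse centromeres lie, the lost share was 83.2% (153 of 184, 77.1 to 87.9%) in the first segment and 65.6% to 73.1% in the other 9. Over those 9 it was 2174 of 3168 (68.6%, 67.0 to 70.2%). The first segment was singled out after its value was seen and is given without a test, and it held 6.57% of the autosomal members.

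**Figure D5:**
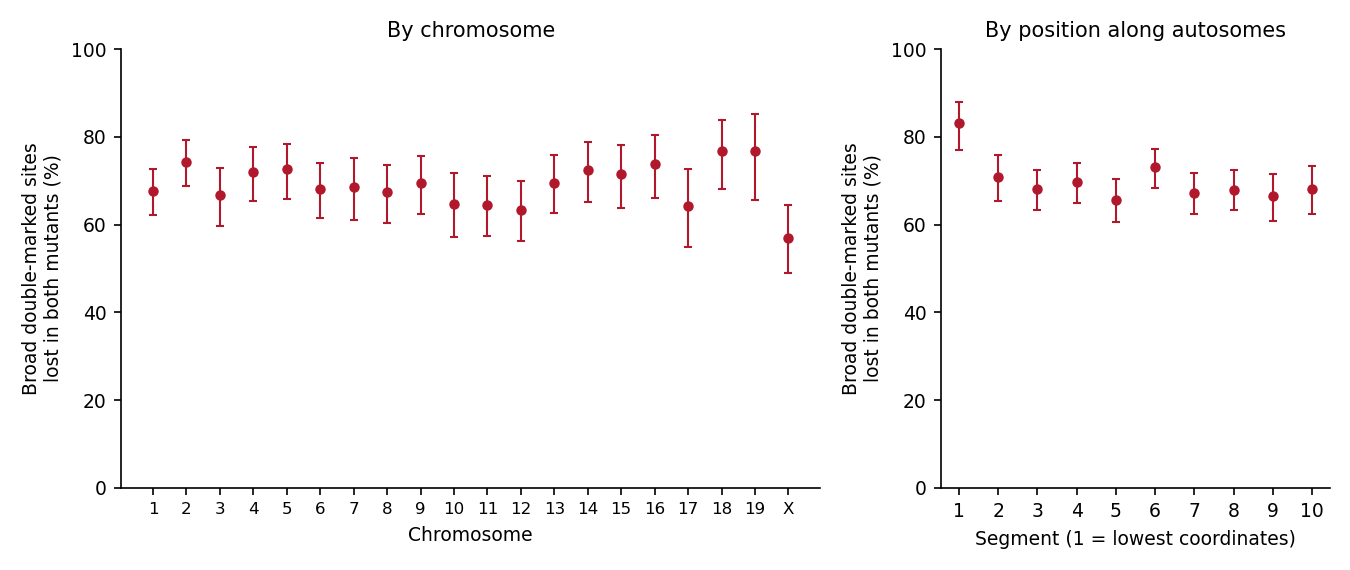
Percent of broad double-marked sites lost in both mutants (vertical axes) by chromosome (left) and by segment of the autosomes (right, segment 1 of 10 at the lowest coordinates), with 95% Wilson intervals that cover counting of sites only. The Y chromosome, with 2 such sites, is not drawn; among the chromosomes drawn the X has the lowest point at 56.9%, and the first segment the highest of the right panel at 83.2%.

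Named members show the range of settings. The widest was chr19:24380746-24384398, 3653 bp and double-marked throughout, within Pip5k1b, a phosphatidylinositol phosphate kinase gene. Its nearest EP peak lay 593 kb away and its nearest EK peak 574 kb. The next was chr11:121742204-121745794, 3591 bp with 3293 bp double-marked and in no coding gene, 24.8 kb from Metrnl, which encodes a secreted protein. The third, chr6:134776200-134779701, was 3502 bp and double-marked throughout, within Dusp16, a phosphatase of MAP kinases, and was the only 1 of the 10 widest with mutant peaks within 10 kb, at 9.82 kb in EP and 9.46 kb in EK.

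In the other 7 of the 10 widest members, the share of the peak listed as double-marked ran from 49.5% to 100%. A member of 3478 bp at chr9:6534501-6537978 had 1938 bp double-marked (55.7%) and lay 0.217 kb from the boundary of Pdgfd, which encodes a platelet-derived growth factor. A member of 3438 bp at chr1:153715684-153719121 had 3101 bp double-marked, with its nearest coding gene boundary at Rgs8, a regulator of G-protein signalling. A member of 3407 bp at chr7:101654522-101657928 had 3111 bp double-marked, 5.67 kb from Clpb, a mitochondrial chaperone gene. The member at Gm30501, chr7:125209047-125212079, was double-marked over all of its 3033 bp. In Grm4, a metabotropic glutamate receptor gene, the member at chr17:27453099-27456125 was 3027 bp wide with 2562 bp double-marked. In Sgip1, which encodes an endocytic adaptor, the member at chr4:102907158-102910173 was 3016 bp wide with 1493 bp double-marked (49.5%). The last, chr13:80234629-80237563, was 2935 bp wide with 2519 bp double-marked and lay 646 kb from the nearest coding gene boundary, that of Arrdc3. Of these 10 members, 4 lay in a coding gene span.

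Genes with a member were longer than most. A member midpoint lay in 853 of 21887 protein-coding genes (3.90%), in 151 of them at least 2 and in 46 at least 3. The median span of genes with a member was 164 kb, against 17.2 kb for all protein-coding genes. A longer span is more likely to hold a midpoint of any set of sites, so this contrast is no trait of the members. The spans of genes holding other listed peaks were not compared. The genes named next were chosen for holding at least 4 member midpoints, so nothing is read from their shares of members. In the whole list 13.1% of peaks were members. Asic2, a proton-gated sodium channel gene of 1088 kb (chr11:80880163-81968396), held 6 members among its 10 listed wild-type peaks. Kcnma1, the pore subunit of a calcium-activated potassium channel (chr14:23292288-24005110), held 5 of 11, and Pard3b, a cell polarity gene (chr1:61638667-62642284), 5 of 14. Magi1, a junctional scaffold gene (chr6:93675453-94283929), and Epha6, an ephrin receptor gene (chr16:59641433-60610911), each held 4 of 7. Macrod2, an ADP-ribose hydrolase gene of 1998 kb (chr2:140395303-142392966), held 4 of 20. Whether a member lay in an exon or an intron was not analysed here.

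Including genes of other kinds, 51.8% of members lay in a gene span, 188 of them in a long non-coding RNA span without a coding one, and 1165 (48.2%) lay in none. The list of genes that act in meiotic recombination, synapsis and the PRDM9 pathway held 1 gene with a member. Of the 55 genes matched from a list of 58 names, 16 had a wild-type peak of any kind in their span and 1 (1.82%) had a member, beside 3.90% of all protein-coding genes. It was Cdyl, a chromodomain protein gene (chr13:35659818-35874064), with 1 member among 4 listed peaks. The matched genes had a median span of 39.9 kb.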

How the data were processed

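Peak positions from H3K4me3 and H3K36me3 ChIP-seq of mouse spermatocytes were compared. The files used here are 6 lists that the authors deposited, with a chromosome, start and end per peak and no other value. Per the submitters' processing notes, Trimmomatic, BWA 0.7.9a and MACS 1.4 were named, and per the description deposited with the files the build was mm10 and each list keeps peaks at known PRDM9-dependent sites. Peaks that fell elsewhere could not appear, and a wide peak can join neighbouring signals. The MACS threshold is not given in the sources used here, and whether the mutant lists pool libraries is inferred from there being 1 list.

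Overlap of at least 1 bp, widths, borders and distances were computed with Python 3.11.15, pandas 2.3.3 and NumPy 2.4.6, shares by Fisher's exact test (two-sided, SciPy 1.17.1) with Benjamini-Hochberg adjustment over 18 tests, and plots were drawn with matplotlib 3.10.9. Single shares have 95% Wilson intervals and differences have Newcombe intervals, which cover counting of sites only. The overlap code was tested on simulated intervals against bedtools 2.31.1. Gene spans came from RefSeq on GRCm38.p6 (49943 genes with coordinates, 21887 of them protein-coding), promoters and miRNAs from RefSeq tables of the same assembly, and chromosome ends from the farthest coordinate in the lists or the gene table. The members, comparisons, named genes and gene list were chosen with earlier results of these data known. The named sites and genes are the 10 widest members, the 6 widest members at a promoter window (of which the 4 with a whole window double-marked are printed), every coding gene with at least 4 member midpoints, and the meiotic list. Alternatives were overlap by 50% or by midpoints, merged peaks, other width limits, autosomes only and other distance limits. A planned description of base composition at the midpoints needed a genome and was not run.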

Additional observations from a re-analysis of the deposited data

How the results depend on the processing

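Of 131 values recomputed under alternatives, 100 kept their direction and their side of the threshold (or, for counts, stayed within 1.5 times). Differences are in percentage points, members minus the other class. The number of members was 349 with broad taken from 2000 bp and 3878 with the limit lowered by 250 bp. From 2000 bp, 3 differences from kept sites changed sign (gene boundary 0.424, neighbour within 50 kb 1.29, nearest peak lost -0.240), as did 2 from narrower sites (gene boundary 0.218, neighbour 2.60) and 2 from broad H3K4me3-only sites (X-linked 2.17, nearest peak lost -3.07). No longer past the threshold there were the X-linked share against kept sites (-2.10) and narrower sites (1.90), gene spans against narrower sites (-6.67) and gene boundaries against H3K4me3-only sites (-5.00); there, lost double-marked sites of 1500 to 1999 bp counted as narrower. With the limit lowered, gene spans against kept sites changed sign (1.12), as did nearest peak lost against narrower sites (2.71). Newly past the threshold there were neighbours against kept sites (-3.68), the distal share against narrower sites (-2.25), and the X-linked share (-1.27) and distal share (-1.71) against H3K4me3-only sites; nearest peak lost was 3.93 against kept and 2.62 against H3K4me3-only sites. The X-linked share against narrower sites was not past the threshold (1.01). With midpoints at most 500 bp apart, gene spans against kept sites (0.225) and the X-linked share against H3K4me3-only sites (0.0219) changed sign. On autosomes only, gene spans against kept sites (0.219) and nearest peak lost against narrower sites (0.215) did. Boundaries within 5 kb passed against kept (-3.56) and narrower sites (-3.32), and neighbours within 100 kb did too (-3.73 and -3.59). Among sites of 1500 to 1999 bp, chosen after seeing the data, the X-linked difference from kept sites was -1.12 and not past the threshold. The causes of these changes were not tested. Loss of the nearest peak uses the loss calls that chose the members, and nothing is read from its values.

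No paired analysis was possible because the files used here give 1 list per genotype and kind of peak, with no separate list for a library, and leaving out a replicate was not possible with them. Read depth is unknown, so a weak mark below the detection limit and an absent mark cannot be told apart. The planned base composition at midpoints was not run.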
